A study of Mus musculus with 4 samples.

Results

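The miRNAs described here carry the names miR-297, miR-466, miR-467 and miR-669, which belong to the large repeat-borne miRNA cluster in an intron of Sfmbt2 on mouse chromosome 2. They were chosen by name, with earlier results of these data known. Every mature miRNA of these 4 families was taken, counted over reads of 18 to 25 nt. The table held 63 such names as deposited, and 62 of 989 mature miRNA names once each sequence was given 1 name over all libraries. They covered 212 of 3757 distinct mature miRNA sequences. Small RNAs had been sequenced from whole testes of mice aged 16 days, in 2 libraries from animals with an Hsf5 knockdown and 2 from wild-type animals, called biological replicates in the labels. The protein made from Hsf5, heat shock factor 5, is a transcription factor of the testis, and the stated aim of the series was to look for piRNA changes. The labels give neither the strain nor how Hsf5 was knocked down, and the deposited table calls the knockdown animals knockouts. Small RNA libraries do not measure the Hsf5 messenger RNA, so the degree of knockdown was not checked here.

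A miRNA is cut from a hairpin in a longer transcript, and either arm of the hairpin, called 5p and 3p, can be kept as the mature miRNA. Bases 2 to 8, the seed, do most of the pairing with target messenger RNAs. The cluster in Sfmbt2 is found in rodents, is transcribed with its imprinted host gene from the paternal copy, is best known for its high level in the placenta, and is built from tandem copies of a short unit. Near-identical copies mean that 1 read often fits many hairpins. Many of its 3p arms are rich in alternating A and C, and many of its 5p arms in G and U.

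In GRCm39 with GENCODE M39, Sfmbt2 lies on chromosome 2 from 10375306 to 10600064 on the plus strand. Of the annotated hairpins of the 4 families, 72 lie in intron 10 of the transcript Sfmbt2-201 (10466284 to 10528755), from 10471474 to 10523090. They comprise 5 miR-297, 24 miR-466, 14 miR-467 and 29 miR-669 hairpins in 51.6 kb. Mir467a alone has 10 copies there, with a median distance of 2.46 kb between neighbours. Another 10 hairpins of these families lie elsewhere in the genome.

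**Figure D1:**
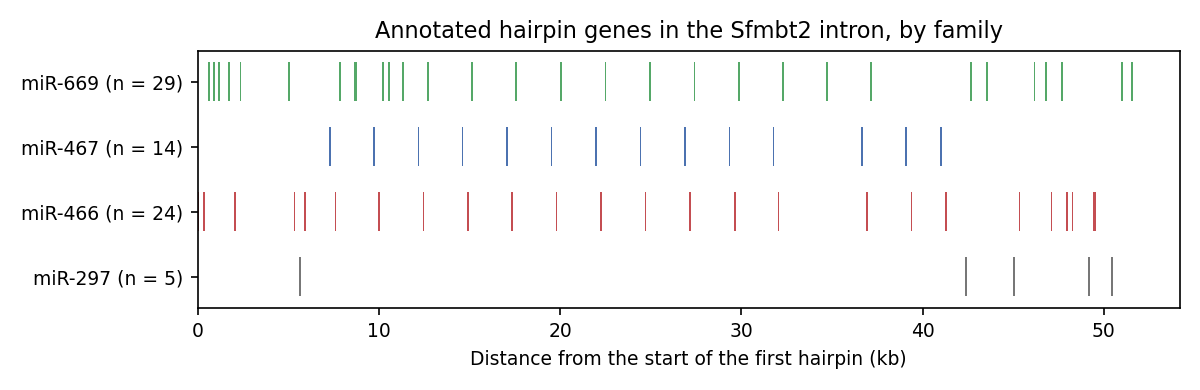
Annotated hairpin genes of the 4 families in the Sfmbt2 intron, drawn to scale against the distance in kb from the start of the first hairpin, with 1 row per family and 1 mark per hairpin. The miR-466, miR-467 and miR-669 hairpins recur at a near-regular spacing across the middle of the 51.6 kb, and the 5 miR-297 hairpins lie to its sides.

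The reads that carried the findings below are shown as the deposited table gives them, 5′ to 3′ in DNA letters, with the seed in capitals. They are the most abundant read of each leading seed, apart from that of miR-466i-3p, so that the 2 arm classes and the neighbouring seeds can be compared. Each matches the intron on chromosome 2.
miR-467a-5p: tAAGTGCCtgcatgtatatgc
miR-467c-5p: tAAGTGCGtgcatgtatatgtg
miR-467e-5p: aTAAGTGTgagcatgtatatgt
miR-669c-5p: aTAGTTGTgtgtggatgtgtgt
miR-669p-5p: aGTTGTGTgtgcatgttcatgtct
miR-466c-5p: tGATGTGTgtgtgcatgtacat
miR-669o-3p: aCATAACAtacacacacacgtat
miR-467d-3p: aTATACATacacacacctacac
miR-466c-3p: aTACATACacgcacacataaga
miR-466a-3p: tATACATAcacgcacacataaga
The miR-467a-5p seed alone took 8792 of the 20833 member reads. The other leading seeds were those of miR-669o-3p with 1675 reads, miR-669p-5p and its relatives with 1421, and miR-466a-3p and its relatives with 1301. None of the 14 most abundant seeds was shared by the leading read of any other miRNA in the table. The last 2 sequences printed are the same RNA cut 1 base apart, and that base gives them different seeds.

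The libraries held 9619666 and 10900306 counted reads in the knockdown and 11117460 and 9260452 in the wild type, of which 1947703 and 1851650 in the knockdown, against 1998793 and 1393676 in the wild type, were mature miRNA reads. Replicates 1 and 2 of a group are given in that order throughout. The miR-506 family of the X chromosome, typical of the testis, took 249855 and 325837 reads per 1000000 mature miRNA reads in the knockdown libraries and 292624 and 260397 in the wild type. Testis somatic miRNAs such as miR-202 and miR-143 took 90248 and 123158 in the knockdown, against 97265 and 95805 in the wild type, with knockdown replicate 2 the highest in this sum. Name by name the list was mixed. On the scale of the fit below, knockdown replicate 2 lay 1.09 (log2) from the other 3 libraries for miR-143-3p and -0.62 for miR-202-5p. Its median over the 12 names was -0.21, and it was the lowest library for 5 of them. A spermatocyte list (miR-34b, miR-34c and miR-449a, 6 names) took 8574 and 7740 in the knockdown, against 6347 and 10613 in the wild type, so the groups overlapped. Blood miRNAs took 328.6 and 202 in the knockdown, against 282 and 330 in the wild type. A list of spermatogonia and proliferation miRNAs such as miR-17 and miR-21a took 19792 and 15294 in the knockdown, against 18142 and 20000 in the wild type. All these sums are before the TMM scaling described below. After it, knockdown replicate 2 lay a median of 0.12 (log2) from the other 3 libraries over the 8 tested blood names. Over 28 names of spermatogonia and proliferation it lay at -0.034, over 33 of the miR-506 family at -0.12 and over 5 of the spermatocyte list at -0.45. Knockdown replicate 2 stood apart over miRNAs as a whole: its log2 differences from the other 3 libraries had an SD of 1.06 over the features tested below, against 0.636 for knockdown replicate 1 from the wild-type pair. In whole tissue fewer cells of a type and less RNA per cell cannot be told apart, and the part of cell makeup in the values below was not tested.

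The members were a small part of the testis miRNAs. They took 6246 and 3212 reads in knockdown replicates 1 and 2, against 6473 and 4902 reads in wild type replicates 1 and 2. As a share of all mature miRNA reads this was 0.321% and 0.173% in the knockdown libraries, against 0.324% and 0.352% in the wild type. It averaged 0.247% ± 0.104 in the knockdown and 0.338% ± 0.0197 in the wild type (SD, n = 2 each). Knockdown replicate 1 lay beside wild type replicate 1, and knockdown replicate 2 stood alone below the rest. The difference in means was -0.0907 percentage points, which became -0.0171 without knockdown replicate 2 and -0.164 without knockdown replicate 1. With the mature totals multiplied by the TMM factors of the fit below, which level the bulk of miRNAs between libraries, it became -0.0337. In TMM-scaled CPM (reads per 1000000 counted miRNA reads, after these factors) the members came to 2527 and 2289 in the knockdown, against 2598 and 2806 in the wild type, so knockdown replicate 2 was still the lowest library, by less. No test was made of this sum. Wilson 95% intervals of the 4 shares, which cover counting error only, were 0.313 to 0.329% and 0.168 to 0.180% in the knockdown libraries, against 0.316 to 0.332% and 0.342 to 0.362% in the wild type.

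The authors' names for member reads were less stable than those of other miRNAs. The name differed between libraries for 31 of the 151 member sequences found in at least 2 libraries, which held 4558 reads or 21.9% of member reads, against 1.73% of the reads of other mature miRNAs. By library such reads made up 28.4% and 10.9% of member reads in the knockdown, and 17.5% and 26.6% in the wild type. The other name was a member in every case, so the sum over members did not depend on it. The read printed for miR-466c-3p shows the effect: it was named miR-466b-3p in knockdown replicate 1, miR-466a-3p in knockdown replicate 2 and miR-466c-3p in both wild-type libraries. As deposited, miR-466b-3p thus had 256 and 0 reads in the knockdown and 0 and 1 in the wild type. For this reason each sequence was given 1 name, and names that exchanged sequences were also merged into groups, called below by 1 of their names. The merging was chosen after the data were seen.

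Most member reads matched the Sfmbt2 intron and nowhere else. Of all member reads, 17813 had every exact genome match in the intron, 3000 matched the intron and other places, and 20 matched only elsewhere. The intron-only share was 81.5% and 94.3% in the knockdown libraries, against 87.3% and 82.4% in the wild type. Copies could not be told apart for the greater part, since 16036 reads matched at least 2 hairpins of the intron, 4530 matched 1 and 267 matched none. The names miR-466i and miR-466k belong to hairpins annotated only outside the cluster, Mir466i on chromosome 13 and Mir466k on chromosome 3, although the leading miR-466i-3p read also matched 1 place in the intron among 104 in the genome. The 2 names together took 601 and 62 reads in the knockdown and 426 and 421 in the wild type, and their share of member reads was 9.62% and 1.93% in the knockdown, against 6.58% and 8.59% in the wild type. The names miR-466j, miR-466q, miR-467f, miR-467g, miR-467h and miR-669n, whose hairpins lie elsewhere, had no mature-named read. The same held for Mir297-1. Reads that the authors named by the hairpin mir-466q, which are not counted here, came to 85 and 32 in the knockdown, against 84 and 45 in the wild type.

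The miR-467 family led, with 1554 and 1258 reads per 1000000 mature miRNA reads in the knockdown libraries, against 1955 and 1764 in the wild type. The miR-669 family had 799 and 355 in the knockdown, against 698 and 937 in the wild type. The miR-466 family had 839 and 117 in the knockdown, against 567 and 803 in the wild type, which put its knockdown libraries on both sides of the wild-type pair. The miR-297 family was rare, at 14.9 and 4.86 in the knockdown, against 18.5 and 13.6 in the wild type. On this scale knockdown replicate 2 was the lowest library for all 4 families, but for miR-467 that order depended on the scaling. On the TMM-scaled CPM scale, miR-467 came to 1224 and 1661 in the knockdown, against 1568 and 1407 in the wild type, so knockdown replicate 2 was the highest. For miR-466 there were 662 and 153.95 TMM-scaled CPM in the knockdown, against 455 and 641 in the wild type. For miR-669 there were 629.5 and 468.3 in the knockdown, against 560.2 and 748 in the wild type. In both, and in miR-297, knockdown replicate 2 stayed the lowest library.

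**Figure D2:**
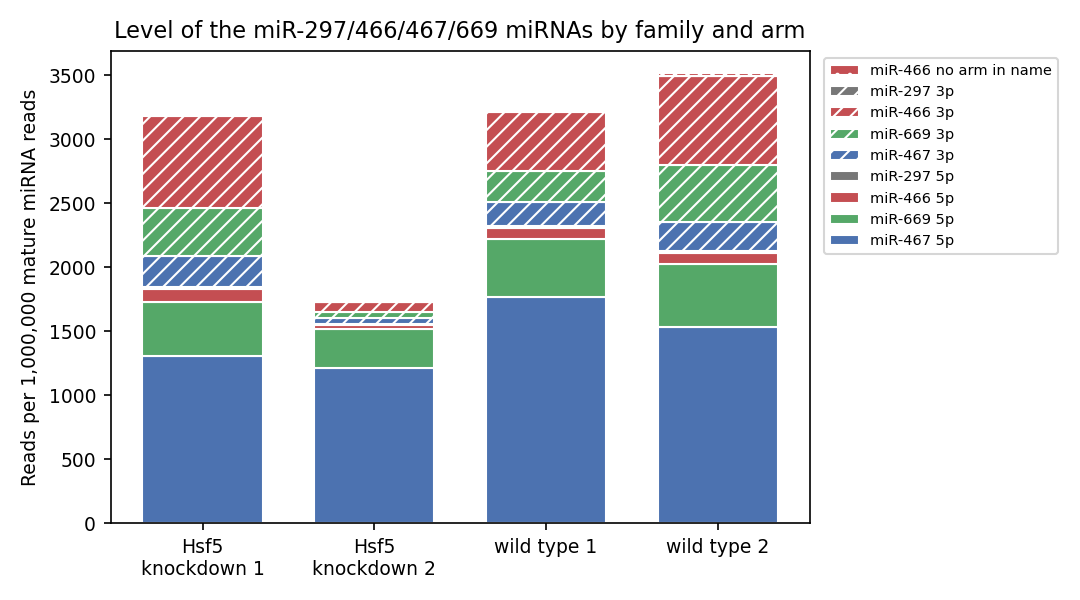
Reads per 1000000 mature miRNA reads, stacked by family (colour) and arm (plain 5p, striped 3p, dotted no arm in the name), with 1 bar per library and the knockdown libraries at the left. The striped 3p part is 1345 and 177 in the knockdown bars, against 899 and 1373 in the wild-type bars, while the plain 5p part is 1843 and 1556 in the knockdown, against 2323 and 2125 in the wild type.

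Splitting the families by arm showed where the low library was low. The 3p arms of all members took 1345 and 177 reads per 1000000 mature miRNA reads in the knockdown, against 899 and 1373 in the wild type. The 5p arms took 1843 and 1556 in the knockdown, against 2323 and 2125 in the wild type. On the TMM-scaled CPM scale the 3p arms came to 1060 and 233 in the knockdown, against 721 and 1095 in the wild type. The 5p arms came to 1452 and 2053 in the knockdown, against 1864 and 1695 in the wild type. Knockdown replicate 2 was thus the lowest library in the 3p arms on both scales, and in the 5p arms the lowest on the first and the highest on the second. Of its 2053 on the second scale, 1602 were miR-467 and 401 miR-669, for both of which it was the highest library. For the 5p reads of miR-466, at 45.6, it was the lowest. Per 1000000 mature miRNA reads, the 3p reads of miR-466 took 717 and 79.9 in the knockdown, against 463.3 and 697 in the wild type. Those of miR-669 took 374 and 50.8 in the knockdown, against 246 and 443 in the wild type. Those of miR-467 took 247 and 44.3 in the knockdown, against 185 and 230 in the wild type. In the 3p reads of all 3 families knockdown replicate 2 was the lowest library and wild type replicate 1 the next, on both scales.

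The share of the 5p arm among member reads was 57.8% and 89.8% in the knockdown libraries, against 72.1% and 60.8% in the wild type. Among all other miRNAs it was 65.9% and 56.5% in the knockdown, against 63.0% and 64.2% in the wild type, so knockdown replicate 2 was the highest library among members and the lowest among the rest. Knockdown replicate 2 also had the highest 5p share in each repeated hairpin, counted over reads that match that repeat and at least 2 hairpins of the intron. The 2 arms did not always match the same hairpins. The leading miR-466c-5p read matched 3 intron hairpins and that of miR-466c-3p matched 14. The leading miR-669p-5p read matched 14 and that of miR-669o-3p matched 12. In the Mir467a repeat (miR-467a-5p group and miR-467d-3p group) the 5p share was 81.4% and 96.4% in the knockdown, against 89.5% and 85.0% in the wild type. In the Mir669a and Mir669p repeat it was 33.0% and 71.5% in the knockdown, against 47.5% and 32.9% in the wild type. In the Mir466b, Mir466c and Mir466e repeat it was 9.12% and 25.8% in the knockdown, against 17.3% and 9.26% in the wild type. The favoured arm differed between repeats, and in each of them knockdown replicate 2 had the highest 5p share and wild type replicate 1 the next. Paired by name instead (50 or more reads in every library), knockdown replicate 2 was highest for miR-466c, miR-466i, miR-467a, miR-669a, miR-669c and miR-669o. It was lowest for miR-467d, at 12.9% and 10.3% in the knockdown, against 21.9% and 14.6% in the wild type. It was also lowest for miR-669p, at 95.5% and 88.6% in the knockdown, against 91.1% and 89.9% in the wild type. For miR-466a, miR-467c and miR-467e it was neither alone highest nor alone lowest.

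**Figure D3:**
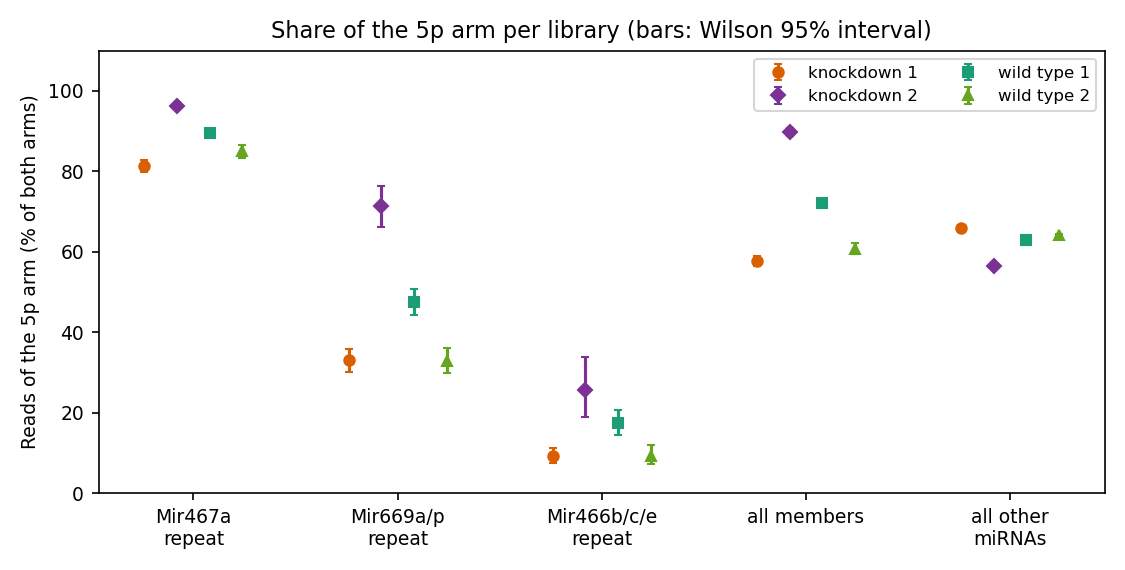
Share of the 5p arm among reads of both arms, in percent, for 3 repeated hairpins, all members and all other miRNAs, with 1 point per library (knockdown libraries at the left of each set) and the Wilson 95% interval as the bar. Knockdown replicate 2 is the highest point in the 3 repeats and in all members (89.8%), and the lowest among all other miRNAs (56.5%).

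Counts per miRNA name were compared between the groups with edgeR over all 936 miRNA features that reached 1 CPM (count per 1000000 counted miRNA reads) in at least 2 libraries, of which 46 were members. No member passed an adjusted p of 0.05 in edgeR's quasi-likelihood test, where 0% of all features passed. At an unadjusted p under 0.05 there were 0 members and 13 features in all, or 1.39%. DESeq2 called 0 members and 1 feature in all. The log2 difference was positive for 10 members and negative for 36, with a median of -0.46, against 482 positive, 454 negative and a median of 0.026 over all features. With library totals in place of TMM factors, 4 were positive and 42 negative, and the median of all features moved to -0.25. For 15 of the 46 members the knockdown pair lay wholly below the wild-type pair, beside 17.5% of all features, and for 0 members wholly above it, beside 11.8%. By arm it lay wholly below for 11 of the 22 tested 5p members and 3 of the 21 tested 3p members. The median log2 difference between the groups was -0.46 over the 5p and -0.48 over the 3p members. Knockdown replicate 2 was the lowest library for 33 of the 46 members and for 367 of all 936 features.

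The 2 knockdown libraries did not carry that median alike. Knockdown replicate 2 lay a median of -0.87 (log2) from the other 3 libraries over the tested members, with -1.42 over the 21 that are 3p arms and -0.37 over the 22 that are 5p arms, beside -0.071 over all features. Knockdown replicate 1 lay a median of -0.028 from the wild-type pair, beside -0.0033 over all features. By arm its median was 0.27 over the 3p members and -0.32 over the 5p members, of opposite sign. Without knockdown replicate 2 no member was called, 22 of 46 were positive, and the median was -0.044. Without knockdown replicate 1 edgeR called 7 of 40 members, all lower, with a median of -1.40, and 123 of 858 features in all. A lone knockdown library is there assumed to vary like the wild-type pair.

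The most abundant member was miR-467a-5p, cut from the copies of Mir467a and Mir467b. Its group had 2083 and 2090 reads in the knockdown, against 3054 and 1771 in the wild type. On the TMM-scaled CPM scale this was 851 and 1449 in the knockdown, against 1237 and 1024 in the wild type, so the knockdown libraries were the lowest and the highest. It averaged 1150 ± 423 CPM in the knockdown and 1130 ± 151 CPM in the wild type (SD, n = 2 each), with a log2 difference of 0.024 (SE 0.40; edgeR adjusted p = 0.996). The name miR-467a-5p alone had a log2 difference of 0.055, which turned to -0.34 with library totals in place of TMM factors.

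The 3p groups put the libraries in another order. The miR-466a-3p group, of 6 names, had 827 and 98 reads in the knockdown and 503 and 550 in the wild type. Its log2 difference was -0.36 (SE 0.71; edgeR adjusted p = 0.991). The miR-669o-3p group had 688 and 76 reads in the knockdown, against 440 and 551 in the wild type, with a log2 difference of -0.57 (SE 0.75). In both groups knockdown replicate 1 had the most reads in absolute number and knockdown replicate 2 the fewest. In TMM-scaled CPM the miR-669o-3p group had 281 and 52.7 in the knockdown, against 178 and 318 in the wild type. Wild type replicate 2 was thus the highest there. The miR-466a-3p group had 338 and 67.9 in the knockdown, against 204 and 318 in the wild type, with knockdown replicate 1 still the highest.

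The miR-467d-3p group, the other arm of the Mir467a repeat, had 475 and 79 reads in the knockdown, against 360 and 315 in the wild type. The miR-466i-3p group had 199 and 26.3 TMM-scaled CPM in the knockdown, against 152 and 209 in the wild type. Knockdown replicate 2 was the lowest library for both groups. In TMM-scaled CPM knockdown replicate 1 was the highest library for the miR-467d-3p group. For the miR-466i-3p group it lay between the wild-type libraries. The log2 differences were -0.39 (SE 0.60) for the miR-467d-3p group and -0.67 (SE 0.83) for the miR-466i-3p group. With knockdown replicate 1 left out, which leaves 1 knockdown library, the log2 differences were -2.30 for miR-466c-3p and -2.77 for miR-466i-3p. They were -1.49 for miR-467d-3p and -2.11 for miR-669o-3p. With knockdown replicate 2 left out the log2 differences of these 4 were 0.32, 0.20, 0.29 and 0.21.

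Among 5p members, taken by name where no sequences were exchanged, miR-669c-5p, whose leading read has a single place in the genome, had 138 and 213 TMM-scaled CPM in the knockdown, against 132 and 144.2 in the wild type, with a log2 difference of 0.34 (SE 0.38; edgeR adjusted p = 0.994) that turned to -0.034 with library totals. The miR-669a-5p group had 138 and 148 TMM-scaled CPM in the knockdown, against 166 and 159 in the wild type, and a log2 difference of -0.19 (SE 0.34). The single-hairpin miR-467c-5p had 285 and 72 reads in the knockdown, against 245 and 233 in the wild type, with knockdown replicate 2 the lowest. It was not alone: knockdown replicate 2 was the lowest library for 13 of the 22 tested 5p members, beside 17 of the 21 that are 3p arms and 367 of all 936 features. For miR-467e-5p there were 43.7 and 54.9 TMM-scaled CPM in the knockdown, against 57.4 and 46.9 in the wild type, with overlapping groups.

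**Figure D4:**
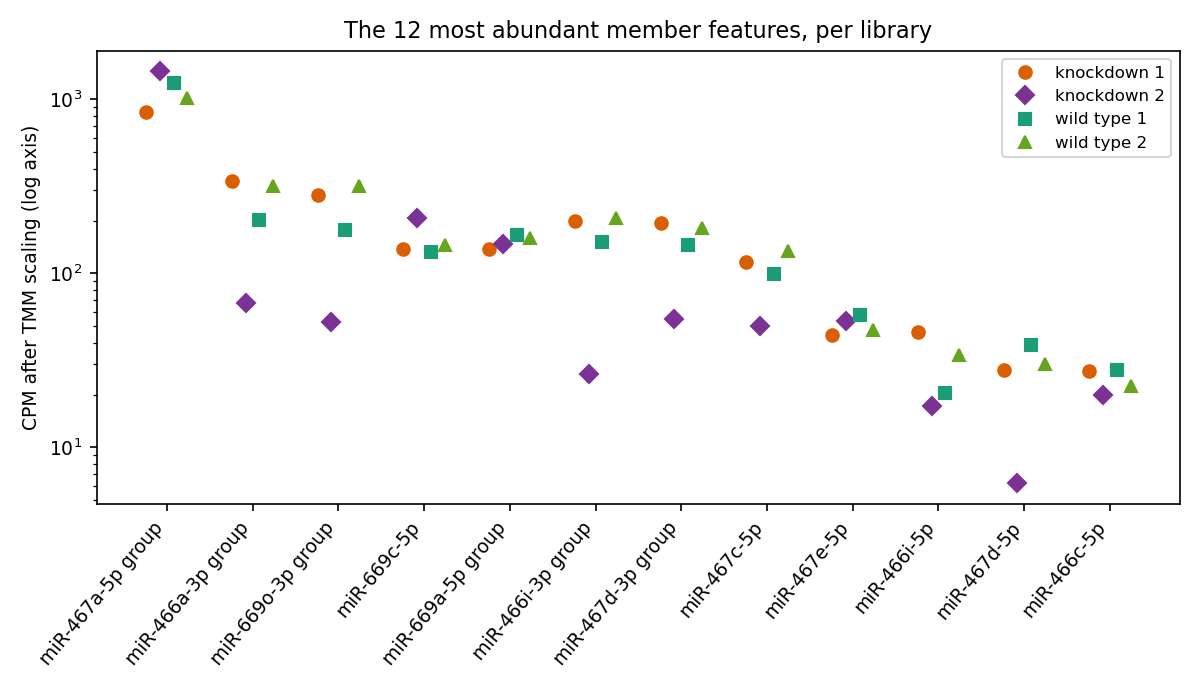
TMM-scaled CPM on a log axis for the 12 most abundant member features after merging names that share sequences, with 1 symbol per library and the knockdown libraries at the left of each set. Knockdown replicate 2 (diamond) is the lowest symbol for the 3p groups of miR-466a, miR-669o, miR-466i and miR-467d, and the highest for the miR-467a-5p group (1449) and for miR-669c-5p. It is also the lowest for miR-467c-5p, miR-466i-5p, miR-467d-5p and miR-466c-5p.

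The members of lowest unadjusted p were rare. Those with a negative log2 difference were miR-466b-5p, miR-466f-3p, miR-669b-3p, miR-466k and miR-669d-5p. The first had 1 and 0 reads in the knockdown, against 7 and 4 in the wild type. For miR-466f-3p there were 2 and 2 in the knockdown, against 11 and 7 in the wild type. The most abundant of the 5, miR-669d-5p, had 25 and 7 in the knockdown, against 29 and 46 in the wild type. Their unadjusted p ran from 0.0510 for miR-466b-5p to 0.103 for miR-669d-5p, each with an edgeR adjusted p of 0.994. The lowest p of positive sign belonged to miR-669c-5p, miR-669e-5p, miR-466n-3p, miR-466i-5p and miR-467b-5p, with p from 0.399 to 0.746. Of these, miR-669e-5p had 8 and 2 reads in the knockdown and 1 and 4 in the wild type. Another pair had no read in knockdown replicate 2 and at least 10 elsewhere. Of these miR-466g had 21 and 0 reads in the knockdown, against 13 and 12 in the wild type. For miR-669a-3p there were 40 and 0 in the knockdown, against 21 and 27 in the wild type. Reads of miR-669a-3p and miR-669o-3p exchanged names between libraries, and as deposited miR-669a-3p had 40 and 52 reads in the knockdown, against 313 and 158 in the wild type.

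Base composition moved with the library that stood apart. Among sequences with at least 100 reads in all, the 13 member 3p sequences each had 60% or more A or C, and knockdown replicate 2 lay a median of -2.71 from the other 3 libraries on the log2(CPM + 1) scale of unscaled CPM, with a range of -3.67 to -1.62. The 13 member 5p sequences had a median of -0.41, with a range of -1.89 to 1.04. The other 816 miRNA sequences had a median of -0.67, with -1.25 at 60% or more A or C (105 sequences), -0.76 at 40 to under 60% (483) and -0.33 under 40% (228). Spearman's rho with the A or C share was -0.29 over those 816, as a description with no test, since all points share the same libraries. Over the 26 member sequences it was -0.70, a value that spans both arm classes, which do not overlap in composition. Within the 13 3p sequences it was -0.33, and within the 13 5p sequences it was 0.59, of the opposite sign. Among the 5p sequences the 4 at 40 to under 60% A or C had a median of 0.24 and the 9 under 40% a median of -0.62. For knockdown replicate 1 against the wild-type pair rho was 0.58 over the 26, -0.19 within the 3p and 0.038 within the 5p sequences, and 0.18 over the 816 others. The part of base composition in the low 3p reads of knockdown replicate 2 was not tested.

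**Figure D5:**
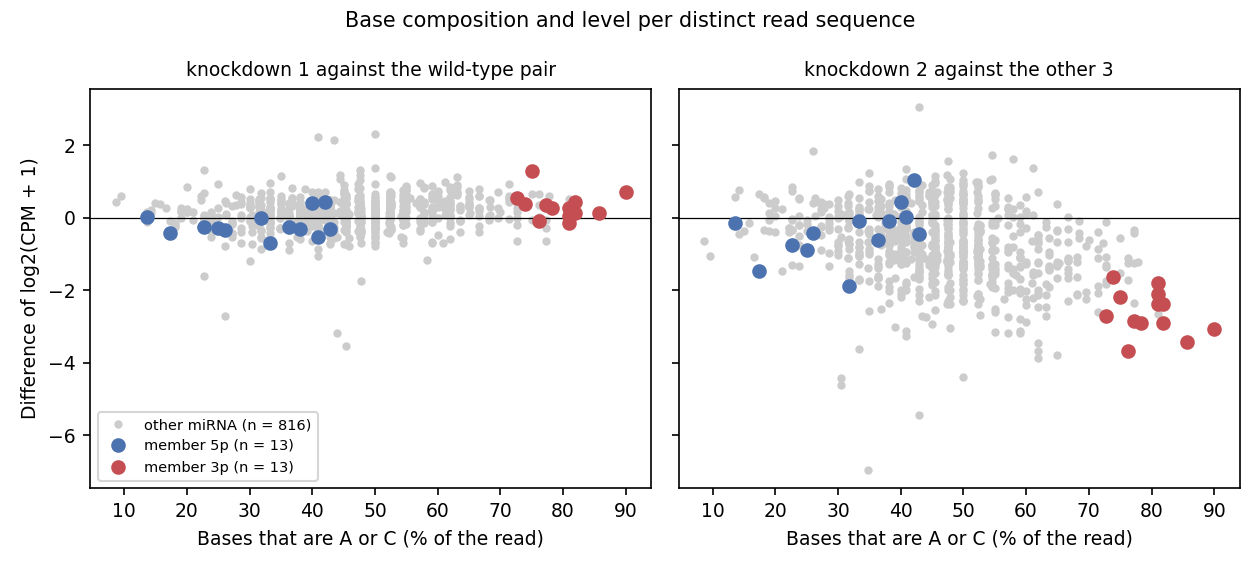
Difference of log2(CPM + 1) against the percentage of bases that are A or C, 1 point per distinct sequence with at least 100 reads, for knockdown replicate 1 against the wild-type pair (left) and knockdown replicate 2 against the other 3 libraries (right). The 13 member 3p sequences sit at the right end of the axis, between -3.67 and -1.62 in the right panel and with a median of 0.27 in the left.

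Reads of 21 and 22 nt made up most of the members. Those of 22 nt took 42.5% and 50.9% of member reads in the knockdown, against 43.7% and 43.9% in the wild type. Those of 21 nt took 33.9% and 33.9% in the knockdown, against 39.1% and 33.8% in the wild type. Those of 23 nt took 10.4% and 5.32% in the knockdown, against 8.16% and 10.9% in the wild type, with knockdown replicate 2 the highest library at 22 nt and the lowest at 23 nt. The miR-467a-5p group kept 1 start in at least 97.3% of its reads in every library. The miR-466a-3p group used 2 starts: the earlier one took 52.8% and 68.4% of reads in the knockdown, against 44.3% and 47.8% in the wild type. The start 1 base later took 44.4% and 31.6% in the knockdown, against 53.3% and 48.0% in the wild type. For knockdown replicate 2 those shares rest on 98 reads. For miR-467e-5p the later start took 25% and 33.8% in the knockdown, against 29.4% and 26.8% in the wild type.

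Reads of the same stems that the authors named by the hairpin stood outside the rule, and they held much of miR-669c and miR-467b. There were 1330 and 1097 such reads of 18 to 25 nt in the knockdown, against 1748 and 1060 in the wild type, under 41 names. Of these 95.8% and 97.9% in the knockdown, against 96.5% and 97.5% in the wild type, held a whole mature-named member read of at least 20 nt. The most abundant were miR-669c-5p with 2 more bases at its 3′ end and miR-467a-5p with 1 more base at its 5′ end.
mir-669c, hairpin-named: aTAGTTGTgtgtggatgtgtgtat
mir-467b, hairpin-named: gTAAGTGCctgcatgtatatgc
All hairpin-named mir-669c reads came to 521 and 593 in the knockdown, against 674 and 497 in the wild type, more in each library than those named miR-669c-5p. Together the 2 kinds of miR-669c read came to 442 and 482 reads per 1000000 mature miRNA reads in the knockdown, against 502 and 537 in the wild type. On the TMM-scaled CPM scale they came to 348 and 636 in the knockdown, against 402.5 and 429 in the wild type, so the knockdown libraries were the lowest and the highest. With hairpin-named reads added, the members came to 3890 and 2327 per 1000000 in the knockdown, against 4113 and 4278 in the wild type. On the TMM-scaled CPM scale this was 3065 and 3071 in the knockdown, against 3299 and 3413 in the wild type.

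The other large imprinted miRNA cluster, Dlk1-Dio3 on chromosome 12, gave a point of comparison. Its 73 names summed to 29360 and 31183 reads per 1000000 mature miRNA reads in the knockdown, against 27119 and 29170 in the wild type. Of its 54 tested names 24 had a positive and 30 a negative log2 difference, with a median of -0.047, and knockdown replicate 2 lay a median of -0.65 from the other 3 libraries. The difference between the 2 clusters was not tested.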

How the data were processed

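Small RNA reads of 2 knockdown and 2 wild-type libraries were taken from 1 table in which the authors deposited the raw count of each distinct sequence per library, with its name and class. A further column of the deposited table held a ratio, the authors' scaling factor. Cutadapt and the build mm39 (GRCm39) are named in the submitters' processing notes; the aligner is not given in the sources used here. Reads of 18 to 25 nt were counted once per library. A sequence with several names was given the one with the most reads. Exact matches were searched in GRCm39 with GENCODE M39, and 2 of 62 member names were in the RefSeq table of mature miRNAs (GRCm38.p6), so the printed sequences are deposited reads.

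Counts of mature and hairpin names were tested with edgeR 4.0.16 (R 4.3.3, robust quasi-likelihood test, TMM factors 1.15 and 0.683 in the knockdown, 1.12 and 1.14 in the wild type, Benjamini-Hochberg over 936 of 1529 features with 1 CPM in at least 2 libraries, threshold 0.05), with DESeq2 1.42.0 as an alternative. The code was checked on simulated counts. These varied less between libraries than the real counts, so the check does not show the power of the test here. Libraries held 9260452 to 11117460 reads, and Wilson intervals (95%) cover counting error only. p-values set the difference between the groups against the spread between these libraries, 2 per group. A replicate block, other scalings, filters, names, lengths and leaving out each library were tried. The text names the 12 most abundant members, the 5 of lowest p in each direction, those called, and those at 0 in 1 library and at 10 or more reads in another. Members and lists were chosen with earlier results of these data known.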

Additional observations from a re-analysis of the deposited data

How the results depend on the processing

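The call of 0 members held in edgeR under library totals, RLE factors, no filter or 10 CPM, deposited, merged or stable names, reads of 21 to 23 nt and intron-only reads, and in DESeq2. Leaving out 1 library gave 0 to 7 called (123 of 858 features in all without knockdown replicate 1, beside 0 of 936), a median log2 difference of -1.40 to -0.044, 5 to 22 positive members and a share difference of -0.164 to -0.0171 percentage points. With TMM factors on the mature totals the share difference was -0.0337 points. The positive count of 10 became 5 at 10 CPM, 5 with intron-only reads and 4 with library totals, which moved the median of all features to -0.25. Deviations from the group means correlated at 0.00930 between same-numbered libraries, a value that 2 libraries per group make identical for both numbers. The numbers were not taken as pairs. With the replicate block 0 members were called and 9 were positive, with a median of -0.55. The log2 difference of miR-467a-5p turned to -0.021 without unstable names, -0.34 with library totals and -0.0012 without a filter. That of miR-467b-5p turned to -0.88 with deposited names and -0.24 with library totals, that of miR-669c-5p to -0.034 with library totals, and that of miR-669o-3p to 0.023 with deposited names. Over the 4 fits that each left out 1 library, the sign also turned for miR-466a-3p (-1.32 to 0.48), miR-466c-3p (-2.30 to 0.32), miR-466i-3p (-2.77 to 0.20), miR-466i-5p (-0.60 to 0.79), miR-466n-3p (-0.14 to 0.79), miR-467a-5p (-0.39 to 0.40), miR-467b-5p (-0.40 to 0.62), miR-467c-5p (-1.18 to 0.029), miR-467d-3p (-1.49 to 0.29), miR-467e-5p (-0.24 to 0.13) and miR-669o-3p (-2.11 to 0.21). The causes were not tested. In depth, 26 of 62 members had under 10 reads in every library.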
